A study of Sus scrofa with 10 samples.

Results

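Claudins, cadherins, connexins and the proteins that sit beside them at cell contacts were followed in pig (Sus scrofa) testis tissue and in tissue grown from pig testis cells under the skin of mice. The set was defined by gene name: numbered claudins (CLDN), numbered cadherins (CDH) without CDH5, connexins of classes A to E (GJA to GJE), NECTIN1 to NECTIN4, TJP scaffolds, OCLN, F11R, JAM2 and JAM3. Of 27376 rows in the table, 74 matched these names, 9 of them (CLDN8, CLDN17, CLDN20, CLDN22, CLDN23, CLDN25, GJA3, GJB5 and GJC3) had no count in any library, and 65 remained as members. GF grafts (4 libraries) came from germ cells and testicular fibroblasts together, FO grafts (4 libraries) from testicular fibroblasts alone, and the control group (2 libraries) is testis tissue, titled 5D without an explanation of that code. For both graft types the primary cells were mixed with concentrated Matrigel, placed in the dorsal skin of what the labels spell as a SKID mouse, and collected at 6 months. The design asks whether the germ cells influence how testicular tissue is remodelled and developed. The rows name pig genes, and whether mouse reads of the host entered them was not tested. Whether replicates came from separate animals is not labelled, so p-values measure the spread between these samples, which may be technical.

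Claudins are the strand-forming membrane proteins of tight junctions, and occludin, the JAM proteins and the TJP scaffolds lie with them. Cadherins join like cells through calcium-dependent contacts at adherens junctions, nectins pair across the gap between cells, and connexins assemble into channels that pass small molecules from cell to cell. In the testis such contacts form the blood-testis barrier between Sertoli cells, hold germ cells to Sertoli cells and couple Leydig, Sertoli and peritubular cells.

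Libraries held between 2915534 and 7013911 counts, and 3 counts in a single library, taken as the floor for a gene at 0, equalled 0.453 to 1.04 CPM. CPM is the usual unit of scaled counts, here with TMM normalization. The libraries count reads at the 3′ ends of transcripts, and whether the annotation covers the 3′ end of each gene was not tested. Values are compared for a gene between groups and not between genes. GF 3 and GF 4 had the lowest totals (2915534 and 2948156) and stood apart from GF 1 and GF 2 in several members named below. This split was not limited to the members. The chi-square per degree of freedom, a measure of difference beyond counting noise, was 11.8 for GF 1 and GF 2. It was 22.7 for GF 3 and GF 4 and 50.6 to 58.9 between libraries of these 2 pairs. FO 1 and GF 3 carried skeletal muscle transcripts, with 9 of 10 listed genes in the table summing to 147 CPM in GF 3 and 615 CPM in FO 1, against 2.61 to 23.0 CPM in the other libraries. Listed germ cell genes (10 of 10 in the table) summed to 537 to 2592 CPM in GF, 6.97 to 11.1 CPM in FO and 127 to 133 CPM in control testis. All 10 were called higher in GF than in FO, 6 higher in GF than in control and 7 lower in FO than in control. PRM1, TNP1 and PIWIL1 averaged 406, 279 and 247 CPM in GF, against 0, 0.240 and 6.58 CPM in control. PIWIL2 and SYCP3 averaged 50.5 and 55.3 CPM in GF, against 38.5 and 36.6 CPM in control. Of the 65 members, 42 had enough counts to be tested in at least 1 comparison, 36 of them in GF versus FO and all 42 in the comparisons with control testis. A member that passed the filter only through the group where it is high had to differ, so counts over the tested members describe them and support nothing further. The test was edgeR's quasi-likelihood F test over all genes, and a gene was called at a Benjamini-Hochberg adjusted p under 0.05. Fold changes are on the log2 scale and carry their SE.

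In GF grafts compared with FO grafts, 4 tested members rose and 9 fell, together 36.1% of the 36 tested, where 30.5% of all 13782 tested genes were called (17.6% higher, 13.0% lower). Those that rose were the connexin GJC1, the nectins NECTIN1 and NECTIN2 and the cadherin CDH4, and those that fell were CDH1, CDH2, CDH6, CDH11, CDH20, CLDN1, GJA5, GJB1 and JAM3. The groups did not overlap for 14 of the 36 members (38.9%) and for 36.0% of all tested genes. The median log2 fold change was 0.03 over the tested members and -0.02 over all tested genes. With total counts alone as scaling, which moved the median of all genes to 0.13, 4 members rose and 5 fell. Under that scaling 20.2% of all tested genes rose and 9.06% fell.

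The cadherins held 6 of the 13 calls, with 1 of 14 tested members higher in GF, 5 lower and 8 that did not pass. CDH6 (chr16:17531862-17660081 in Sscrofa11.1), a cadherin known from the fetal kidney, had 52.7, 51.8, 35.9 and 49.1 CPM in the GF libraries, against 485, 336, 198 and 329.7 CPM in the FO libraries and 10.4 and 12.2 CPM in control testis. The 3 groups did not overlap, with FO highest and control testis lowest. The log2 fold change was -2.83 ± 0.29, adjusted p = 0.000118 in GF versus FO, 2.07 ± 0.36, adjusted p = 0.00132 in GF versus control and 4.89 ± 0.41, adjusted p = 1.01e-05 in FO versus control. CDH2 (chr6:112396713-112629073), the N-cadherin of Sertoli cells, germ cells and mesenchyme, had 178, 141, 128 and 160.4 CPM in the GF libraries, against 623, 429, 352 and 392 CPM in the FO libraries and 105 and 102 CPM in control testis. Again no group overlapped another and FO was highest. CDH2 fell in GF versus FO (-1.56 ± 0.24, adjusted p = 0.000788) and was higher in FO than in control (2.12 ± 0.29, adjusted p = 0.000327), while GF versus control did not pass (0.56 ± 0.27, adjusted p = 0.148). Fewer cells of a type and less RNA per cell cannot be told apart in such bulk tissue. The 7 listed fibroblast genes, all in the table, summed to 1536 to 2592 CPM in GF, 4260 to 6186 CPM in FO and 3119 to 3122 CPM in control testis, with 6 of 7 lower and 1 higher in GF than in FO and none at 0 in any group. Their part in the cadherin differences was not tested.

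CDH20 (chr1:159817091-160024985), a type II cadherin, was near absent from control testis. It had 10.9, 8.30, 1.73 and 20.1 CPM in the GF libraries, against 36.8, 28.3, 26.4 and 29.7 CPM in the FO libraries and 0 and 0.302 CPM in control testis. All GF libraries lay below all FO libraries, GF 3 was the lowest of them, and control 1 had no count. The 2 counts over both control libraries make the fitted fold unstable, so the pooled ratio is given with its exact 95% counting interval: 63.4-fold higher in GF (17.3 to 528) and 189-fold higher in FO (52.2 to 1569). Without control 1 these ratios were 33.1 (9.02 to 276) and 98.9 (27.2 to 819), and without control 2, when the remaining control library held 0 counts, at least 20.2-fold and at least 60.4-fold against 3 counts. Both differences from control were called (adjusted p = 0.00158 for GF and 0.000394 for FO), and CDH20 fell in GF versus FO (-1.56 ± 0.51, adjusted p = 0.0352). CDH7 (chr1:156295885-156436375), on the same chromosome, was highest in control testis, with 0.857, 0, 0 and 0 CPM in the GF libraries, against 0, 0.435, 0.419 and 0.636 CPM in the FO libraries and 4.29 and 4.08 CPM in control testis. It fell in GF versus control (-3.98 ± 1.23, adjusted p = 0.0303), it did not pass in FO versus control (-3.35 ± 1.17, adjusted p = 0.0608) and it was too low for GF versus FO. In FO versus control it passed with only those 2 groups in the fit (-3.30, adjusted p = 0.00119) and without GF 3 and GF 4 (-3.31, adjusted p = 0.00475), so a difference between the graft types is not shown. All-gene calls rose to 6600 and 6510 in those 2 runs, against 2972. All 4 GF counts of CDH7 came from GF 1. Without that library it was at least 15.8-fold lower in GF than in control against 3 counts.

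CDH1 (chr6:18075487-18155986), the E-cadherin of epithelia and of early spermatogonia, had 7.93, 8.49, 3.80 and 3.11 CPM in the GF libraries, against 22.3, 10.7, 13.8 and 12.1 CPM in the FO libraries and 2.64 and 1.21 CPM in control testis. FO exceeded GF and GF exceeded control in every library. CDH1 fell in GF versus FO (-1.31 ± 0.45, adjusted p = 0.0464) and was higher in FO than in control (2.92 ± 0.66, adjusted p = 0.00808), and GF versus control did not pass (1.62 ± 0.63, adjusted p = 0.0747). Of the 10 listed duct and surface epithelium genes 9 are in the table, and they summed to 124 to 251 CPM in GF, 271 to 450.0 CPM in FO and 170.2 to 174 CPM in control. Their members did not move as one. The keratins KRT7 and KRT19 averaged 49.9 and 67.5 CPM in GF, against 56.0 and 107 CPM in FO and 0.955 and 7.31 CPM in control. KRT8, on average the largest part of the sum, was at 70.3 CPM in GF, 205 CPM in FO and 155 CPM in control. The splicing regulator ESRP1 averaged 0.161 CPM in GF, 0.175 CPM in FO and 5.95 CPM in control. In GF versus FO 1 of 3 tested genes fell, in GF versus control 2 of 5 rose and 2 fell, and in FO versus control 2 rose and 1 fell. EPCAM had no count in GF 3 and GF 4. ELF3 had none in control testis and averaged only 0.313 CPM in GF and 0.317 CPM in FO. The part of duct and surface epithelium in the CDH1 values was not tested. CDH3, the P-cadherin, whose gene lies 35.0 kb from CDH1, averaged 8.78 ± 5.08 CPM in GF, 9.61 ± 0.377 CPM in FO and 16.6 ± 0.129 CPM in control (SD; n = 4, 4 and 2), with no call in any comparison (adjusted p = 0.848, 0.172 and 0.287).

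CDH11 (chr6:25782746-25933753), the cadherin first known from osteoblasts and common in mesenchyme, had 24.0, 24.9, 8.63 and 18.3 CPM in the GF libraries, against 63.3, 30.0, 37.3 and 44.3 CPM in the FO libraries and 61.0 and 58.6 CPM in control testis. GF was below both other groups in every library, and the control values lay inside the upper FO range. CDH11 fell in GF versus FO (-1.19 ± 0.36, adjusted p = 0.0253) and versus control (-1.64 ± 0.38, adjusted p = 0.00765), and FO versus control did not pass (-0.45 ± 0.39, adjusted p = 0.466). CDH4 (chr17:60959236-61454154), the R-cadherin of the developing retina, was the cadherin that rose in GF versus FO. It had 11.4, 13.4, 11.4 and 11.4 CPM in the GF libraries, against 4.46, 7.18, 2.73 and 3.60 CPM in the FO libraries and 28.9 and 32.8 CPM in control testis. The 3 groups did not overlap, control was highest and the GF libraries spanned only 11.4 to 13.4 CPM. CDH4 rose in GF versus FO (1.40 ± 0.43, adjusted p = 0.0288) and was below control in both GF (-1.37 ± 0.40, adjusted p = 0.0234) and FO (-2.77 ± 0.41, adjusted p = 0.000502).

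The other 7 cadherins tested in GF versus FO did not pass in any comparison. They were CDH10, CDH13 (the lipid-anchored T-cadherin), CDH15 (the M-cadherin of muscle), CDH18, CDH22, CDH23 (a component of the tip links of hair cells) and CDH24. CDH18 came nearest, at 1.12 ± 1.56 CPM in GF and 6.32 ± 3.03 CPM in FO (SD, n = 4 each; -2.37 ± 0.86, adjusted p = 0.0555), and it passed without GF 1 (-3.86, adjusted p = 0.00767), with DESeq2 (adjusted p = 0.0195) and with all 10 libraries in the fit (adjusted p = 0.0401). All-gene calls in those runs were 4842, 5147 and 5485, against 4205 with the settings used above. CDH15 had 4.50, 4.33, 5.52 and 7.61 CPM in GF, against 8.36, 4.57, 6.71 and 8.69 CPM in FO and 1.98 and 3.17 CPM in control testis. Of the libraries with skeletal muscle transcripts, FO 1 was close to the highest, FO 4, and GF 3 lay between the other GF libraries. CDH13 averaged 6.67 ± 3.08 CPM in GF, against 6.25 ± 4.74 CPM in FO and 2.76 ± 0.0588 CPM in control. CDH10 ranged over 3.80 to 8.57 CPM in GF, 0 to 7.55 CPM in FO and 2.72 to 5.61 CPM in control, and CDH24 over 2.07 to 8.85, 1.91 to 4.79 and 0.604 to 1.48 CPM in the same order. GF and FO overlapped for CDH10 and CDH24, and every graft library exceeded control for CDH24, without a call. CDH22 ranged over 2.17 to 9.68 CPM in GF, 0.636 to 5.03 CPM in FO and 5.77 to 7.10 CPM in control, and CDH23 over 1.29 to 5.19, 0.653 to 2.33 and 1.15 to 1.36 CPM. CDH8, CDH9, CDH12, CDH16, CDH17 and CDH19 were too low for any test, and CDH19, a cadherin of Schwann cell precursors, had 1 count in all.

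**Figure D1:**
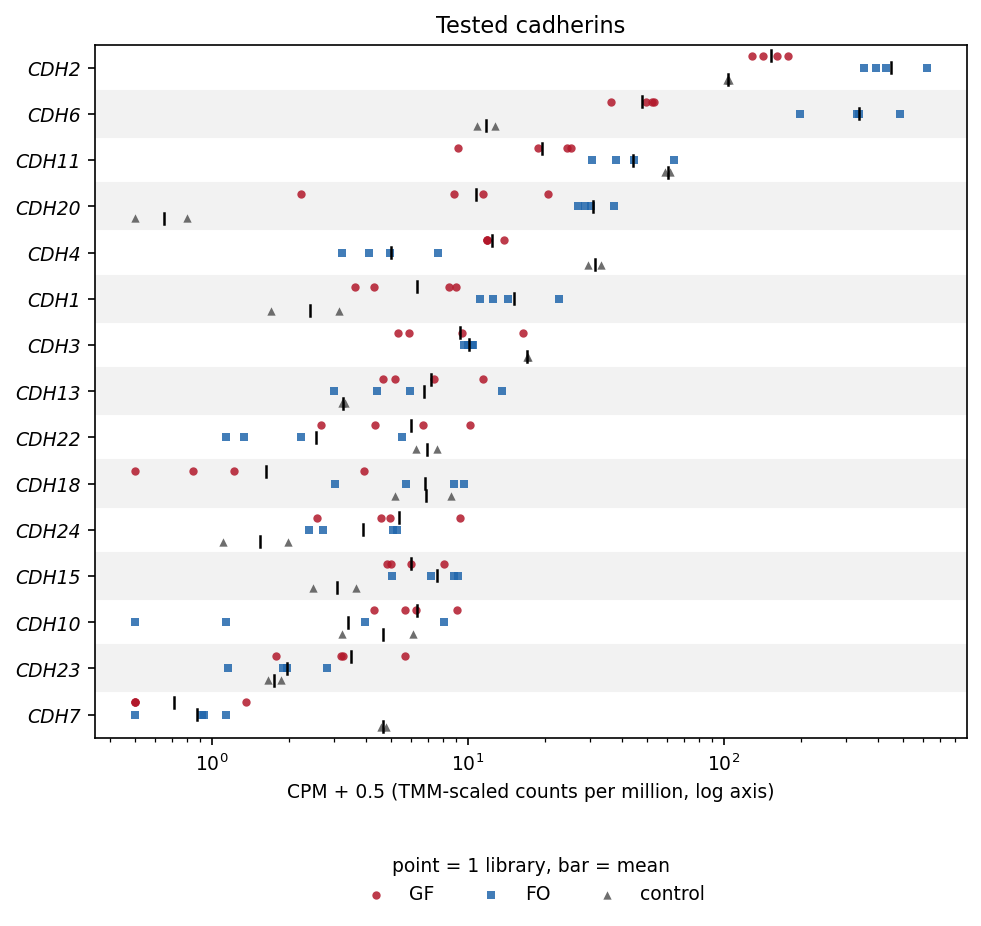
TMM-scaled CPM plus 0.5 (log axis) of the 15 tested cadherins, with 1 point per library in GF (circles), FO (squares) and control testis (triangles) and a bar at the group mean. CDH2, CDH6, CDH1 and CDH20 have their FO points to the right of all others, and for CDH4 the control points are highest and the FO points lowest.

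Among claudins, 1 of the 6 tested in GF versus FO fell and 5 did not pass. CLDN1 (chr13:127714857-127730628), which seals the epidermis and many epithelia, had 18.4, 16.6, 5.87 and 16.9 CPM in the GF libraries, against 90.0, 66.3, 38.6 and 61.0 CPM in the FO libraries and 0.989 and 0.907 CPM in control testis. No group overlapped another, and GF 3 was lowest among the grafts. CLDN1 fell in GF versus FO (-2.13 ± 0.37, adjusted p = 0.00165), and both GF (3.91 ± 0.58, adjusted p = 0.00052) and FO (6.04 ± 0.62, adjusted p = 4.24e-05) were above control. CLDN16, the claudin gene 78.0 kb from CLDN1 and a magnesium pathway protein of the kidney, had 4 counts in control 2 and none elsewhere. CLDN19 (chr6:168695246-168699683), its partner in the kidney, had 15.0, 13.0, 18.0 and 19.7 CPM in the GF libraries, against 8.36, 12.0, 13.6 and 11.4 CPM in the FO libraries and 2.80 and 1.06 CPM in control testis. Both graft types exceeded control in every library, whereas GF and FO overlapped. It was higher in GF (3.07 ± 0.54, adjusted p = 0.00143) and in FO (2.55 ± 0.53, adjusted p = 0.00487) than in control, and GF versus FO did not pass (0.53 ± 0.33, adjusted p = 0.25). Without control 1 these 2 values were 3.89 and 3.38, and without control 2 the FO call ended (adjusted p = 0.107).

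CLDN18 (chr13:78794573-78823761), a claudin of lung and stomach epithelium, ran the other way. It had 0.214, 0, 0 and 0 CPM in the GF libraries, against 0, 0, 0.210 and 0 CPM in the FO libraries and 9.23 and 8.16 CPM in control testis. Each graft type held 1 count over its 4 libraries, against 56 and 54 counts in the control libraries. The pooled ratio was 139-fold lower in GF (exact 95% counting interval 24.4 to 5528) and 153-fold lower in FO (26.9 to 6108), and both comparisons were called (adjusted p = 0.00118 and 0.00112). Without GF 1 or FO 3, the libraries with that count, it was at least 32.7-fold and at least 37.3-fold lower against 3 counts. These intervals and floors cover counting error only.

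CLDN11 (chr13:109075672-109089097), the claudin best known from Sertoli cells and myelin, was close to the floor everywhere. It had 1.93, 2.35, 2.07 and 0 CPM in the GF libraries, against 0, 1.52, 0.419 and 0 CPM in the FO libraries and 0 and 0 CPM in control testis. GF 4, FO 1, FO 4 and both control libraries were at 0 counts, and the other libraries held 2 to 13 counts. It was at least 7.40-fold higher in GF than in control against 3 counts over the control group and did not pass (adjusted p = 0.0704). It passed without GF 4, the GF library at 0 (adjusted p = 0.0314), without GF 3 and GF 4 (adjusted p = 0.0154) and with DESeq2 (adjusted p = 0.0492). In 9 of the 12 alternative runs that tested it there was no call. FO versus control did not pass (adjusted p = 0.221). Listed Sertoli cell genes without claudins were 11 of 12 in the table and dominated by CLU. They summed to 15102 and 17116 CPM in GF 1 and GF 2 and to 40628 and 45943 CPM in GF 3 and GF 4. The sums were 4837 to 8817 CPM in FO and 4868 to 5431 CPM in control. CLU alone averaged 28115 CPM in GF, 5734 CPM in FO and 3840 CPM in control. Other members ran differently, with AMH at 100.4 CPM in GF, 12.9 CPM in FO and 484 CPM in control, and WT1 at 212 CPM in GF, 463 CPM in FO and 103 CPM in control. Of 10 tested genes 5 rose and 1 fell in GF versus FO, 4 rose and 2 fell in GF versus control, and 2 rose and 2 fell in FO versus control. INHBB had no count in either graft type and only 1 count in control testis. The part of Sertoli cells in the CLDN11 values was not tested.

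CLDN3, CLDN4, CLDN6 and CLDN12 were tested in every comparison and CLDN9 and CLDN10 in those with control, and none of these 6 was called. CLDN3 and CLDN4, receptors of a Clostridium enterotoxin, are neighbours 19.6 kb apart and varied most within GF. CLDN3 had 4.50, 4.33, 0 and 19.0 CPM in GF, against 3.34, 5.44, 3.99 and 4.03 CPM in FO and 1.15 and 2.87 CPM in control. CLDN4 had 0.643, 3.79, 7.94 and 3.46 CPM in GF, against 1.11, 0.653, 0.210 and 2.54 CPM in FO and 2.64 and 3.93 CPM in control. GF 3 had no count of CLDN3 and the highest value of CLDN4, so these neighbours differed in which GF library was highest. CLDN12 averaged 9.74 ± 1.96 CPM in GF, 6.15 ± 1.48 CPM in FO and 13.6 ± 2.73 CPM in control. CLDN6 ranged over 3.43 to 5.19 CPM in GF, 1.39 to 5.24 CPM in FO and 1.06 to 2.14 CPM in control, and its neighbour CLDN9, 0.1 kb away, over 0 to 3.80, 0 to 0.636 and 0.453 to 0.495 CPM. CLDN10, a claudin that forms ion channels, reached at most 1.62 CPM in GF, against 1.68 to 4.46 CPM in FO, and was too low for GF versus FO. CLDN2, CLDN5 (the endothelial claudin), CLDN7, CLDN14, CLDN15 and CLDN16 had too few counts for any test.

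The scaffolds and membrane partners of tight junctions showed 1 call, JAM3, among 5 tested members in GF versus FO. TJP1 (chr1:144930387-145195857), the scaffold that defines tight junctions in most tissues, had 131, 125, 77.0 and 47.7 CPM in the GF libraries, against 165, 179.7, 139 and 165 CPM in the FO libraries and 149 and 138 CPM in control testis. All 4 FO libraries exceeded all 4 GF libraries, yet GF versus FO did not pass (-0.77 ± 0.30, adjusted p = 0.0673). It passed without GF 1 (adjusted p = 0.032) or without GF 2 (adjusted p = 0.0489), with DESeq2 (adjusted p = 0.0409) and with all 10 libraries in the fit (adjusted p = 0.0487), and neither graft type was called against control (adjusted p = 0.215 and 0.769). All-gene calls in those GF versus FO runs were 4842, 4078, 5147 and 5485, against 4205 with the settings used above.

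JAM3, an adhesion protein that polarises spermatids in mice, fell in GF versus FO, with a range of 38.0 to 104 CPM in GF, 93.7 to 158 CPM in FO and 37.1 to 48.2 CPM in control. The GF and FO ranges overlapped (-0.99 ± 0.31, adjusted p = 0.03). It was higher in FO than in control (1.60 ± 0.39, adjusted p = 0.0125) and GF versus control did not pass (0.61 ± 0.37, adjusted p = 0.252). JAM2, a related adhesion protein, averaged 118 ± 23.8 CPM in GF, 116 ± 37.7 CPM for FO and 98.5 ± 10.5 CPM in control and was not called (adjusted p = 0.943, 0.562 and 0.655). Occludin, OCLN, had 6.86, 4.87, 1.73 and 0 CPM in the GF libraries, against 9.48, 9.79, 9.02 and 7.84 CPM in the FO libraries and 4.78 and 6.35 CPM in control testis. GF was lower than FO in every library, GF 4 had no count, and the comparison did not pass (-1.37 ± 0.73, adjusted p = 0.175). TJP3 and F11R had too few counts for any test. JAM3 overlaps NCAPD3, TJP1 overlaps SEH1L and CDH23 overlaps PSAP and VSIR in the RefSeq annotation, and CDH2, CDH3, CDH13, CDH18 and JAM2 overlap non-coding or pseudogene entries. Whether the counting used strand is not stated, so reads of these pairs may not be told apart.

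**Figure D2:**
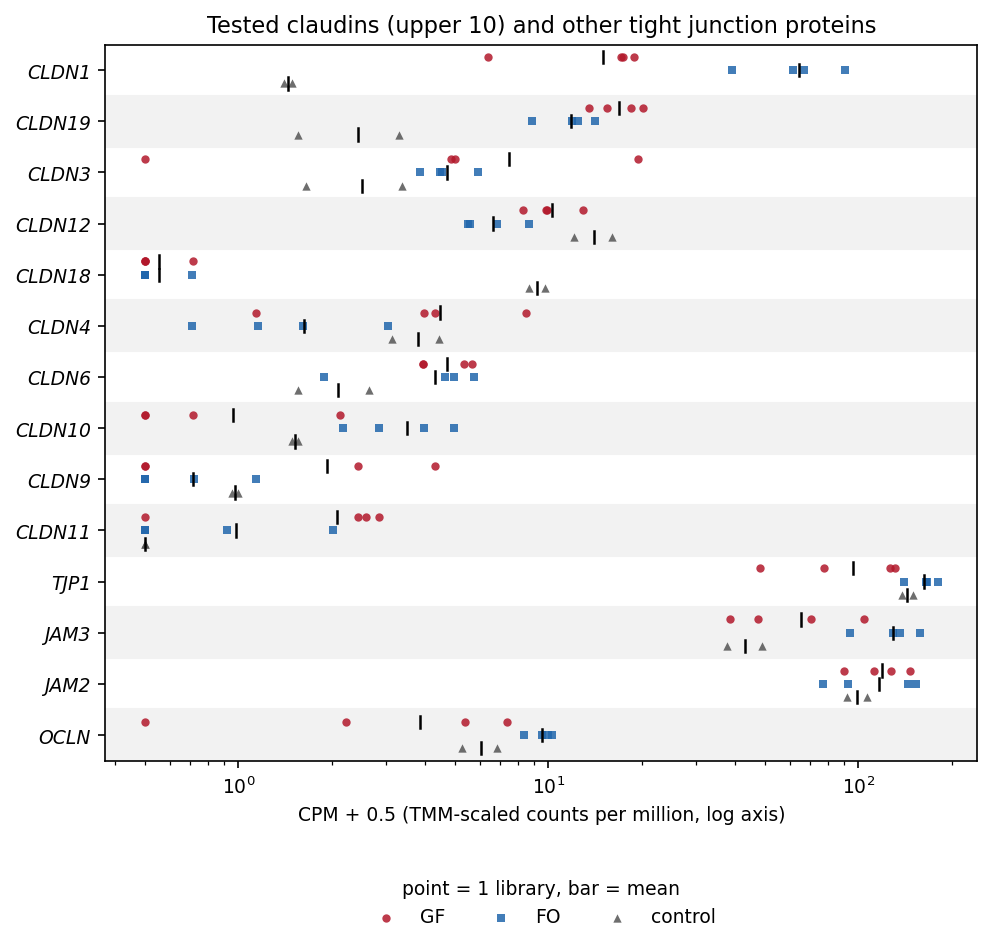
TMM-scaled CPM plus 0.5 (log axis) of the 10 tested claudins (top) and 4 scaffold and membrane partners, with 1 point per library and a bar at each group mean. CLDN1 separates the 3 groups, CLDN19 separates both graft types from control testis, and CLDN18 points of the grafts lie at or near 0 counts (0.5 on this axis).

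Of 8 connexins tested in GF versus FO, 1 rose, 2 fell and 5 did not pass. GJC1 (chr12:18526060-18560221), a connexin of smooth muscle and of cardiac conduction tissue, had 207, 216, 311 and 309.8 CPM in the GF libraries, against 70.8, 97.9, 101 and 53.4 CPM in the FO libraries and 132 and 121 CPM in control testis. The 3 groups did not overlap, and GF was highest. GJC1 rose in GF versus FO (1.70 ± 0.27, adjusted p = 0.00103) and versus control (1.05 ± 0.31, adjusted p = 0.0248), and FO versus control did not pass (-0.65 ± 0.29, adjusted p = 0.146). The 7 listed smooth muscle and peritubular genes, all in the table and none at 0 in any group, summed to 596 to 858 CPM in GF, 226 to 355 CPM in FO and 358 to 414 CPM in control, with 4 of 7 higher in GF than in FO. Their part in the GJC1 values was not tested. GJA1 (chr1:40988818-41002129), the main connexin between Sertoli cells and between Leydig cells, had 149, 123, 74.9 and 54.3 CPM in the GF libraries, against 61.6, 65.9, 85.6 and 46.2 CPM in the FO libraries and 104 and 102 CPM in control testis. GF 1 and GF 2 exceeded every other library, whereas GF 3 and GF 4 lay within the FO range. It did not pass in GF versus FO (0.63 ± 0.32, adjusted p = 0.154). It passed there without GF 4 (0.85, adjusted p = 0.0439) and without GF 3 and GF 4 (1.06, adjusted p = 0.00208). Over all genes, calls in these runs were 4344 and 5305, against 4205 with all 8 graft libraries. Against control GJA1 was not called in GF (-0.03 ± 0.37, adjusted p = 0.958) or FO (-0.67 ± 0.36, adjusted p = 0.225). The 7 listed Leydig cell genes, all in the table and none at 0 in any group, summed to 1699.5 to 3310 CPM in GF, 504 to 3780 CPM in FO and 14171 to 16768 CPM in control. In GF versus FO 1 rose and 1 fell, in GF versus control 5 fell, and in FO versus control 6 fell. INSL3, the largest part of each mean sum, averaged 1533 CPM in GF, 1152 CPM in FO and 9491 CPM in control. HSD17B3 averaged 256 CPM in GF, 47.6 CPM in FO and 139 CPM in control. The part of Leydig cells in the GJA1 values was not tested.

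GJA5 and GJA4 are connexins of arterial endothelium. GJA5 (chr4:99854129-99871288) had 4.72, 3.07, 1.73 and 1.38 CPM in the GF libraries, against 39.9, 15.7, 20.3 and 51.7 CPM in the FO libraries and 4.12 and 2.57 CPM in control testis. Every FO library exceeded every other library, and the control values lay inside the GF range. It fell in GF versus FO (-3.49 ± 0.51, adjusted p = 0.000688), was higher in FO than in control (3.24 ± 0.65, adjusted p = 0.00398) and did not pass in GF versus control (-0.24 ± 0.60, adjusted p = 0.803). GJA4 (chr6:91045430-91048161) was highest in control testis instead, with 4.50, 2.89, 1.38 and 0 CPM in the GF libraries, against 2.79, 1.74, 4.40 and 9.96 CPM in the FO libraries and 13.4 and 20.2 CPM in control testis. It fell in GF versus control (-2.85 ± 0.85, adjusted p = 0.025) and did not pass in FO versus control (-1.82 ± 0.82, adjusted p = 0.147; -1.77, adjusted p = 0.0125 with only those groups in the fit) or in GF versus FO (-1.05 ± 0.84, adjusted p = 0.367). The 9 listed endothelial genes, all in the table and none at 0 in any group, summed to 43.1 to 78.4 CPM in GF, 113 to 261 CPM in FO and 324 to 348 CPM in control. In GF versus FO 1 of the 8 tested ones fell, in GF versus control 6 of 9 fell, and in FO versus control 3 fell and 1 rose. EMCN, on average the largest part of the FO sum, was at 7.23 CPM in GF, 67.1 CPM in FO and 13.5 CPM in control. VWF ran the other way between the grafts, at 14.1 CPM in GF and 10.9 CPM in FO, against 74.9 CPM in control. FO 4 had the highest sum among grafts and the highest GJA5 and GJA4 values among grafts, and the part of endothelial cells in both connexins was not tested.

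GJB1 (chrX:57241990-57249496), the connexin of hepatocytes and of Schwann cell myelin, had 6.86, 5.96, 6.56 and 3.11 CPM in the GF libraries, against 20.9, 26.1, 23.3 and 16.1 CPM in the FO libraries and 0.989 and 0.907 CPM in control testis. No group overlapped another. It fell in GF versus FO (-1.93 ± 0.37, adjusted p = 0.00274) and was above control in GF (2.55 ± 0.54, adjusted p = 0.00463) and in FO (4.47 ± 0.57, adjusted p = 0.000185). GJA9, GJB6 and GJD4 were tested in at least 1 comparison and not called in any. GJA9 ranged over 0 to 6.86 CPM in GF, 2.12 to 6.53 CPM in FO and 2.14 to 3.93 CPM in control, and GJD4 over 0 to 6.21, 0.557 to 6.31 and 3.02 to 4.12 CPM. GJB6 stood at 7.94 CPM in GF 3 and at most 2.14 CPM in every other library. GJA10, GJB2, GJB7, GJD2 and GJD3 had too few counts for any test.

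The nectins showed 2 calls among 3 tested members in GF versus FO, both higher in GF. NECTIN2 (chr6:51317386-51358665), which Sertoli cells of mice carry where they hold spermatids, had 203, 238, 310.4 and 341 CPM in the GF libraries, against 108, 104, 164 and 96.4 CPM in the FO libraries and 143 and 175 CPM in control testis. GF was highest in every library, and control 1 lay inside the FO range and control 2 above it. It rose in GF versus FO (1.21 ± 0.26, adjusted p = 0.00475), with no call for GF versus control (0.78 ± 0.30, adjusted p = 0.0719; it passed without GF 1, adjusted p = 0.0393) or FO versus control (-0.43 ± 0.29, adjusted p = 0.333). NECTIN3, its partner on spermatids of mice, had 322, 335, 243 and 329 CPM in the GF libraries, against 361, 395, 352 and 391 CPM in the FO libraries and 276 and 248 CPM in control testis. The 4 GF libraries lay below the 4 FO libraries, but the test did not pass (-0.28 ± 0.19, adjusted p = 0.285). NECTIN1 (chr9:46823552-46891564), which also pairs with NECTIN3, had 2.14, 7.40, 26.9 and 20.7 CPM in the GF libraries, against 1.39, 2.18, 4.82 and 4.03 CPM in the FO libraries and 11.4 and 11.03 CPM in control testis. Only GF 3 and GF 4 exceeded both control libraries, and GF 1 lay inside the FO range. The call in GF versus FO (2.18 ± 0.72, adjusted p = 0.0384) ended without GF 3 and GF 4 (0.61, adjusted p = 0.48), and neither graft type was called against control (adjusted p = 0.782 and 0.112). Every FO library lay below both control libraries. FO versus control passed with only those groups in the fit (-1.78, adjusted p = 0.00313) and without GF 3 and GF 4 (-1.78, adjusted p = 0.00913). In those runs calls over all genes rose too, to 6600 and 6510, against 2972. NECTIN4 had 53 counts in all and was not tested.

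**Figure D3:**
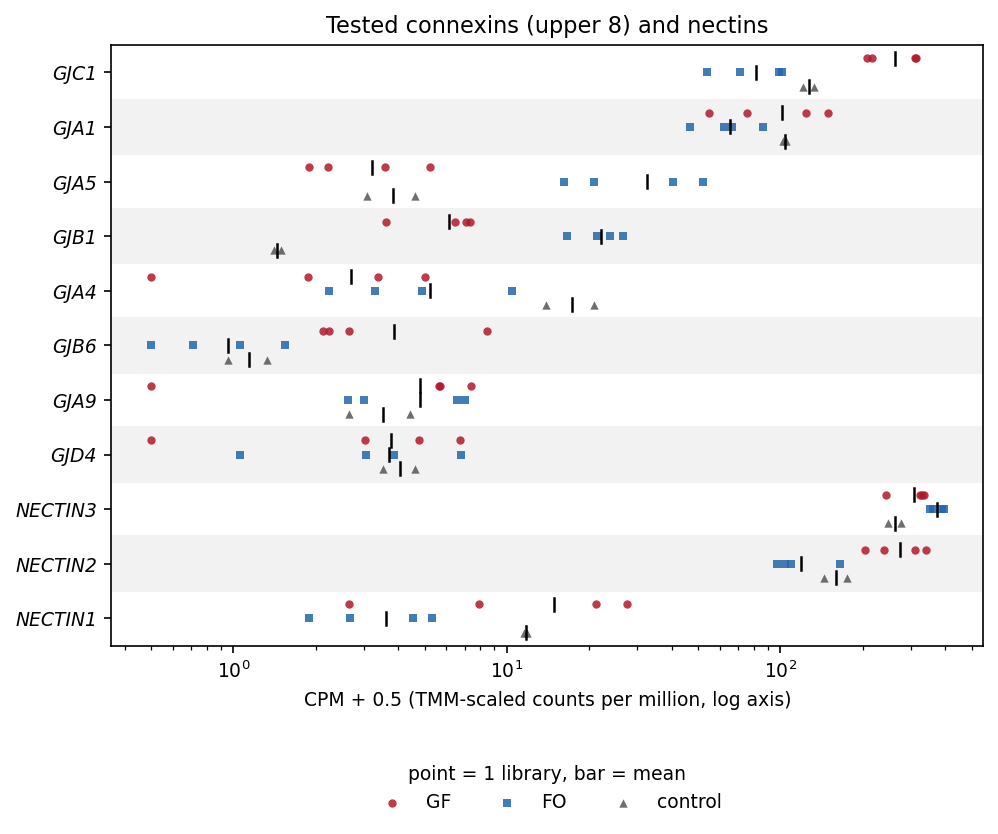
TMM-scaled CPM plus 0.5 (log axis) of 8 tested connexins (top) and 3 tested nectins, with 1 point per library and a bar at each group mean. GJC1 and NECTIN2 points of GF lie to the right of all others, GJA5 and GJB1 points of FO do, and NECTIN1 splits the GF libraries into 2 low and 2 high values.

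Of the 13 calls in GF versus FO, CDH2, CDH6, CLDN1, GJA5, GJB1, GJC1 and NECTIN2 were called under all 17 alternative settings, which include leaving out each graft library in turn, GF 3 with GF 4, and FO 1 with GF 3. The other 6 ended in part of them, while calls over all genes also fell in number, to between 2902 and 3538 without 1 FO library, against 4205 with all 8. CDH20 ended without GF 2 or any single FO library (-1.61 to -1.44, adjusted p = 0.0637 to 0.105) with little change in its value of -1.56. The same holds for CDH4, at 1.24 to 1.41 without GF 2, FO 1, FO 3 or FO 4 (adjusted p = 0.0617 to 0.0854). CDH1 ended without GF 3, GF 4 or any single FO library (-1.43 to -1.03, adjusted p = 0.0667 to 0.174). CDH11 ended without FO 1 (-0.95, adjusted p = 0.102) or FO 4 (-1.17, adjusted p = 0.0612), and JAM3 without GF 3, GF 4, FO 1, FO 2 or FO 3 (-0.98 to -0.80, adjusted p = 0.0603 to 0.092). NECTIN1 ended without GF 3, GF 4 or any single FO library (1.65 to 2.48, adjusted p = 0.0533 to 0.117). Without FO 1 and GF 3, 2 members rose and 5 fell, and without GF 3 and GF 4, 4 rose and 7 fell. Over all tested genes, 9.82% rose and 6.76% fell without FO 1 and GF 3. Without GF 3 and GF 4, 19.2% rose and 16.8% fell.

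Against control testis, 7 tested members rose and 5 fell in GF, and 10 rose and 2 fell in FO. The 12 calls in GF are 28.6% of 42 tested members, where 25.8% of all 15877 tested genes were called, 14.0% higher and 11.8% lower. The 12 calls in FO are also 28.6%, where 18.7% of all tested genes were called, and the 10 that rose are 23.8% of the members where 8.12% of all tested genes rose (10.6% fell). The figures of both graft types depend on the libraries in the fit. With only FO and control in it, 13 of 38 members rose (34.2%) and 10 fell (26.3%), while 22.6% of all tested genes rose and 23.0% fell, so the excess of higher over lower members was smaller. Calls gained there included CDH15, CDH24 and NECTIN3 (higher) and CDH3, CDH7, CLDN12, GJA1, GJA4, GJC1 and NECTIN1 (lower) (adjusted p = 0.00119 to 0.0431). With only GF and control in the fit, 5 of 39 members rose (12.8%) and 3 fell (7.69%). Of all tested genes, 7.97% rose and 6.46% fell in that fit. CDH7, GJA4, GJB1 and GJC1 lost their calls in it (adjusted p = 0.0515 to 0.088). Groups did not overlap for 24 of the 42 members in GF (57.1%, against 47.2% of all tested genes) and for 28 in FO (66.7%, against 58.7%). The median log2 fold change of the members was 0.51 in GF and 0.23 in FO, against 0.03 and -0.04 for all tested genes. Both comparisons share the 2 control libraries, and grafting, time and the age of the tissue cannot be told apart in them. CDH6, CDH20, CLDN1, CLDN19 and GJB1 were among the members higher than control in both graft types, and CDH4 and CLDN18 were lower in both. In all, 6 of 42 members were higher in both (14.3%, against 4.31% of all tested genes) and 2 lower in both (4.76%, against 4.91%).

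With either control library left out, 6 calls in GF versus control ended while calls over all genes fell to 1395 without control 1 and 1141 without control 2, against 4091 with both. Their values moved little: -1.48 and -1.30 for CDH4, -3.98 and -4.05 for CDH7, -1.63 and -1.69 for CDH11, -3.15 and -2.55 for GJA4, 2.58 and 2.46 for GJB1 and 1.09 and 0.96 for GJC1 without control 1 and control 2 (adjusted p = 0.0586 to 0.21). CDH7 also ended without GF 2 (-3.53, adjusted p = 0.053). In FO versus control, where calls over all genes were 977 and 796, against 2972 with both control libraries, JAM3 ended without control 1 (1.41, adjusted p = 0.16) or control 2 (1.79, adjusted p = 0.0932). CDH1 (2.45, adjusted p = 0.141), CLDN19 (2.00, adjusted p = 0.107) and GJA5 (2.93, adjusted p = 0.0851) ended without control 2. Some members passed instead. CDH1 passed in GF versus control without GF 3 (adjusted p = 0.0492) or GF 4 (adjusted p = 0.0314), and without control 1 its value in FO versus control was 3.56. CDH3 passed in GF versus control without GF 3 (adjusted p = 0.023), CDH24 without GF 4 (adjusted p = 0.028) and CDH18 without GF 1 (adjusted p = 0.00773). CDH1, CDH3, CDH24, CLDN11 and JAM3 passed there without GF 3 and GF 4 (adjusted p = 0.00385 to 0.0154). Calls over all genes also rose in these runs, from 4091 to 5677 without GF 3 and GF 4. They were 4729 without GF 1, 4140 without GF 3 and 4463 without GF 4.

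Set side by side, 8 members were both lower in GF than in FO and higher in FO than in control: CDH1, CDH2, CDH6, CDH20, CLDN1, GJA5, GJB1 and JAM3. That is 22.2% of the 36 members tested in both, where 3.97% of all 13782 genes tested in both had this pattern. These comparisons share the FO libraries, so high FO values enter both. For CDH6, CDH20, CLDN1 and GJB1 the GF grafts were also called above control, and the order was FO, GF, control with no overlap. For CDH1, CDH2, GJA5 and JAM3, GF versus control did not pass. CDH4 gave the mirror order, control, GF, FO, with all 3 differences called. It was 1 of 36 members higher in GF than in FO and lower in FO than in control (2.78%), where 4.16% of all genes were.

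**Figure D4:**
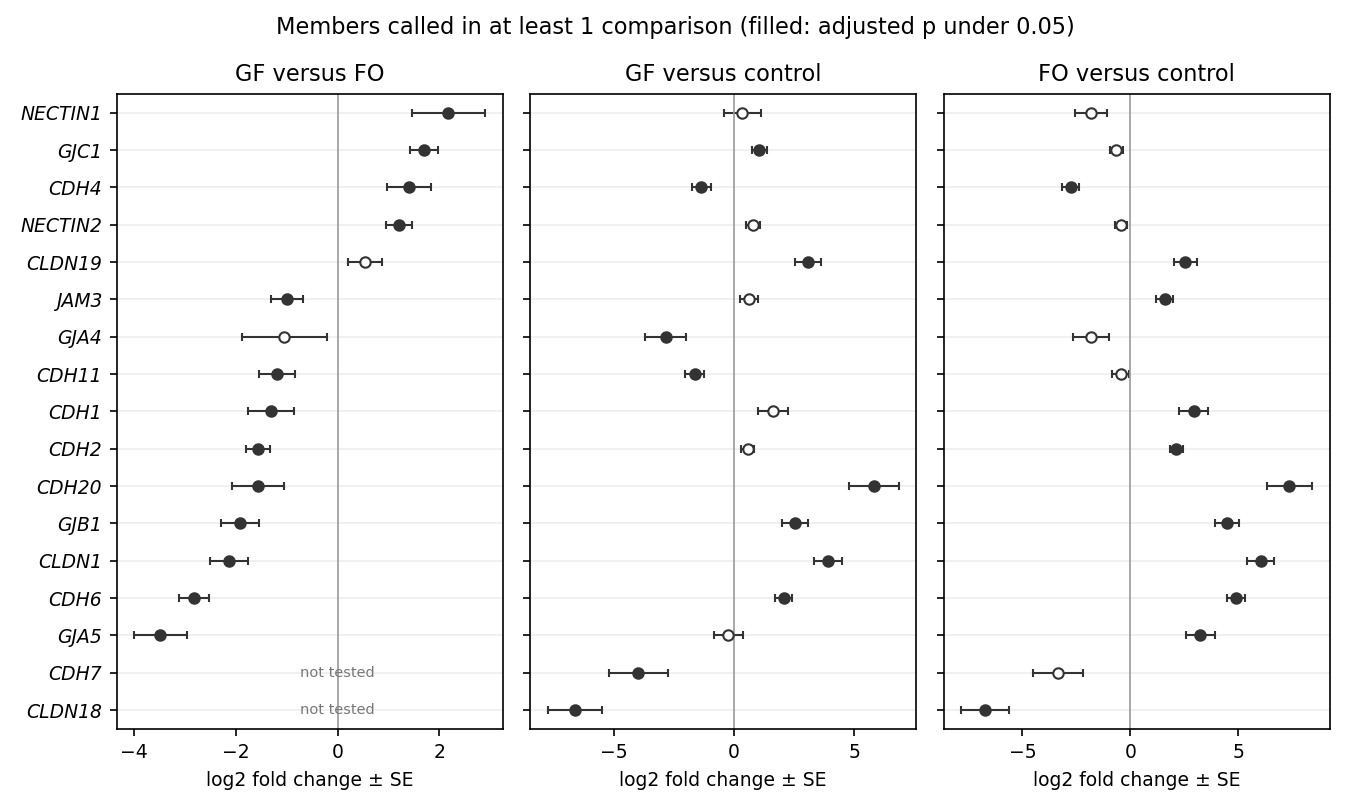
Log2 fold changes with SE of 17 members called in at least 1 comparison, in GF versus FO, GF versus control and FO versus control, with filled points for adjusted p under 0.05. The horizontal ranges differ between panels. CDH6, CLDN1, GJB1 and CDH20 are filled on the left in the first panel and on the right in the others.

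Counts of 2 members taken within 1 library do not depend on scaling, and 6 of 7 such pairs computed, chosen after their values were seen and partly made of members called above, are given as log2 ratios of counts and compared between groups only. The ratio of CDH6 to CDH2 was -1.69 ± 0.17 in GF, -0.45 ± 0.26 in FO and -3.20 ± 0.19 in control (SD; n = 4, 4 and 2). That of CDH4 to CDH2 was -3.67 ± 0.27 in GF, -6.70 ± 0.55 in FO and -1.75 ± 0.15 in control. For both pairs, the 3 groups did not overlap. That of GJC1 to GJA1 was 0.47 and 0.81 in GF 1 and GF 2, 2.06 and 2.51 in GF 3 and GF 4, 0.20 to 0.57 in FO and 0.34 and 0.25 in control, so FO and GF overlapped there. The ratio of CDH1 to CDH2 was -4.83 ± 0.71 in GF, -4.96 ± 0.29 in FO and -5.86 ± 0.77 in control, with overlap between all groups. That of CLDN1 to CLDN19 was -0.30 ± 0.92 in GF, 2.45 ± 0.79 in FO and -0.86 ± 0.91 in control, and that of NECTIN2 to NECTIN3 was -0.19 ± 0.47 in GF, -1.70 ± 0.42 in FO and -0.72 ± 0.31 in control. For these pairs FO did not overlap GF, and control overlapped GF.

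Other junction genes, which are not members, were counted by list. Of all tested genes, 17.6% rose and 13.0% fell in GF versus FO. Of 16 tested catenins and adherens junction adaptors, 2 rose, 3 fell and 11 did not pass in GF versus FO. CTNNA2, the alpha-catenin of neurons, rose (1.52 ± 0.22, adjusted p = 0.000694), as did the focal adhesion protein ZYX (1.74 ± 0.36, adjusted p = 0.00427). CTNNB1, beta-catenin, which binds the tail of classical cadherins, averaged 112 ± 69.6 CPM in GF against 386 ± 96.2 CPM in FO and fell (-1.79 ± 0.42, adjusted p = 0.00764), and AJUBA also fell (-1.43 ± 0.36, adjusted p = 0.0108). Of 6 tested desmosome proteins, 3 fell and 3 did not pass. PERP (-2.47 ± 0.27, adjusted p = 0.000144) and the plakophilin PKP2 (-1.40 ± 0.23, adjusted p = 0.00124) had the lowest p. Of 27 tested tight junction and polarity proteins, 4 rose, 8 fell and 15 did not pass. CXADR, the coxsackievirus and adenovirus receptor, averaged 97.4 ± 22.5 CPM in GF against 464 ± 135 CPM in FO and fell (-2.25 ± 0.28, adjusted p = 0.00028), and the polarity protein CRB3 fell (-4.41 ± 0.75, adjusted p = 0.00144), while IGSF5 (1.77 ± 0.35, adjusted p = 0.00313) and ILDR2 (1.51 ± 0.34, adjusted p = 0.00577) rose. CRB3 averaged 0.564 ± 0.808 CPM in GF, near the floor, against 14.2 ± 1.27 CPM in FO. Of 3 tested pannexins and connexin partners, PANX1 rose (0.90 ± 0.27, adjusted p = 0.0249) and 2 did not pass, and the 4 tested nectin-like proteins, CADM1 to CADM4, did not pass (unadjusted p = 0.208 to 0.839).

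Against control testis, 8 of the 27 tight junction and polarity proteins rose in GF, 1 fell and 18 did not pass, and in FO 10 rose and 17 did not pass. Of all tested genes, 14.0% rose and 11.8% fell in GF, and 8.12% rose and 10.6% fell in FO. The polarity protein CRB2 averaged 24.1 ± 13.7 CPM in GF, 111 ± 21.9 CPM in FO and 0.316 ± 0.0195 CPM in control (SD; n = 4, 4 and 2). It was higher in GF (6.16 ± 0.71, adjusted p = 9.49e-05) and in FO (8.34 ± 0.74, adjusted p = 1.57e-05) than in control. The control mean lay below the value of 3 counts in either control library (0.495 and 0.453 CPM), so these fitted folds are unstable. IGSF5 rose (4.95 ± 0.58, adjusted p = 9.97e-05) and ILDR1, a protein of contacts where 3 cells meet, fell (-3.47 ± 0.90, adjusted p = 0.0135) in GF, and the tight junction protein cingulin, CGN, rose in FO (2.91 ± 0.46, adjusted p = 0.000837). Of 6 desmosome proteins, PERP fell in GF (-1.28 ± 0.29, adjusted p = 0.00663) and 5 did not pass, while in FO 3 rose, with PKP2 (1.83 ± 0.29, adjusted p = 0.000878) and PERP (1.18 ± 0.31, adjusted p = 0.0172) at the lowest p. Of 16 catenins and adaptors, 3 rose (18.8%) and 13 did not pass in each graft type. Of all tested genes, 25.8% were called in GF and 18.7% in FO, either direction. CTNNA2 led in both GF (3.01 ± 0.31, adjusted p = 4.09e-05) and FO (1.49 ± 0.29, adjusted p = 0.00295), followed by ZYX in GF (1.37 ± 0.43, adjusted p = 0.0315) and PLEKHA7 in FO (1.40 ± 0.35, adjusted p = 0.0134). PANX1, a pannexin channel, rose in GF (2.71 ± 0.37, adjusted p = 0.000261) and in FO (1.81 ± 0.35, adjusted p = 0.00317), and PANX2 fell in GF (-3.34 ± 0.94, adjusted p = 0.0195). The GF means of PANX2 (0.370 CPM) and ILDR1 (0.506 CPM) lay below 3 counts in any GF library (0.542 to 1.04 CPM). The 5 tested nectin-like proteins did not pass in either (unadjusted p of at least 0.0622 in GF and 0.0205 in FO).

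**Figure D5:**
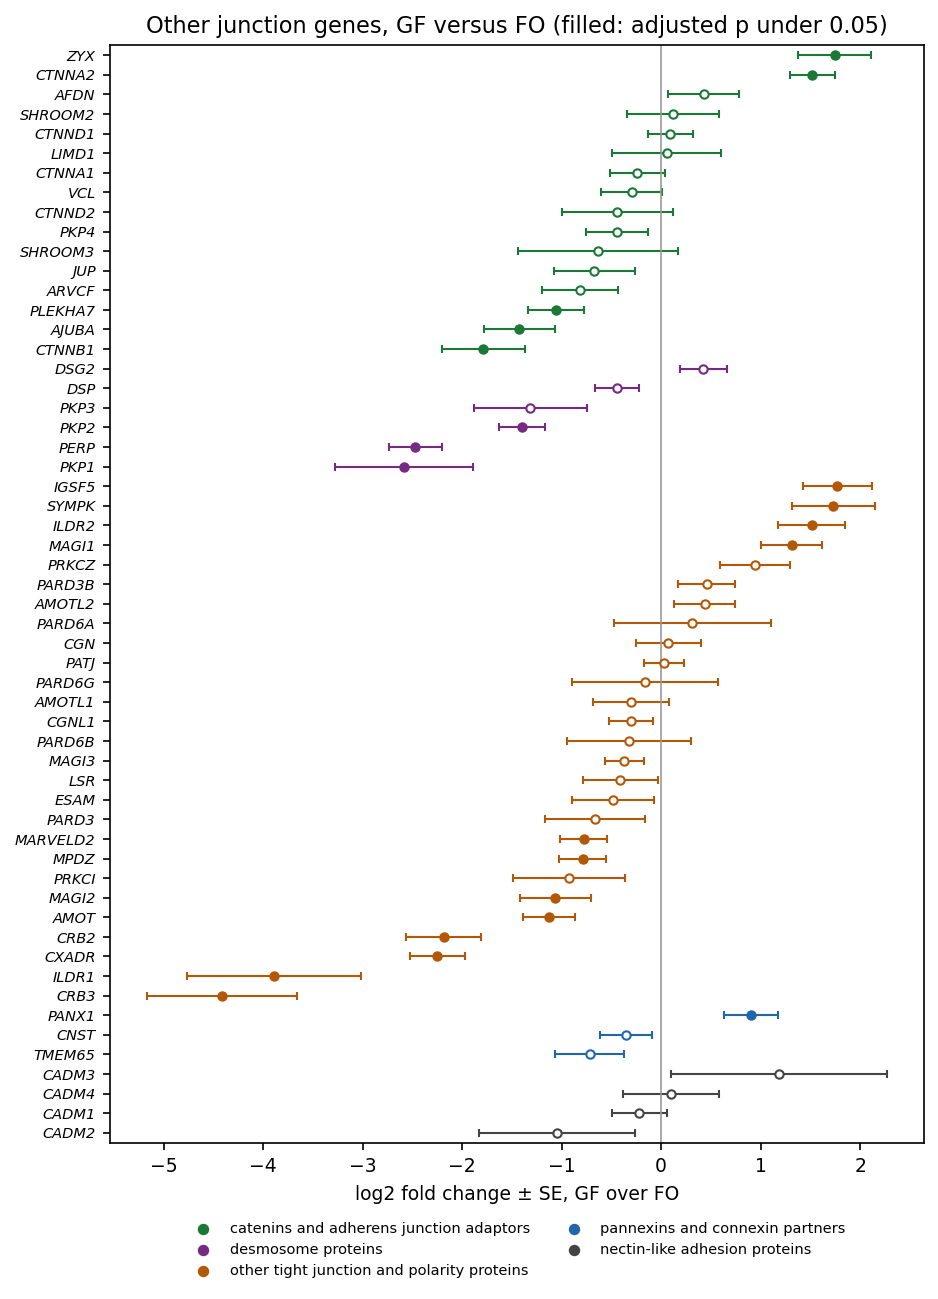
Log2 fold changes with SE in GF versus FO for the tested genes of 5 lists of other junction genes, with filled points for adjusted p under 0.05. The desmosome proteins PERP, PKP1 and PKP2 and the tight junction and polarity proteins CRB3, ILDR1, CXADR and CRB2 are filled on the left, and ZYX, CTNNA2, IGSF5 and ILDR2 on the right.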

How the data were processed

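PolyA RNA of 10 pig libraries was measured with QuantSeq, a 3′ end method, per the labels' protocols. The authors deposited whole-number counts for each gene name, with no normalization. Sscrofa11.1 and DESeq2 1.42.0 are named in the submitters' processing notes with no role, and no aligner, counter or strand setting is stated there. Column names were tied to the sample titles through their letters and number, F being read as FO. Counts passing filterByExpr (minimum count 10) were scaled with TMM and tested with edgeR 4.0.16 (R 4.3.3, quasi-likelihood F test, robust, Benjamini-Hochberg over all tested genes), GF versus FO on 8 libraries and each graft type versus control in a fit of all 10. The SE is the log2 fold change divided by the root of F. Tested members are named except for a few that are not reported here but enter the counts, and values per library are given for CLDN11, CLDN1, CDH20 and the up to 8 higher and 8 lower called members of largest fold in each comparison, with a few others chosen after their values were seen. In each list of other junction genes the 2 with the lowest p in each direction are named. Members and lists were chosen with earlier results of these data known. A group at 0 is set at 3 counts, and 1 to 3 counts get an exact 95% interval. Members were matched to the RefSeq table of Sscrofa11.1 (65 of 65), which gives the coordinates. No 2 libraries of a group agreed within counting noise. The scripts were tested on simulated data. Alternatives were DESeq2, RLE or total-count scaling, no filter, a fold threshold of 1.5, a replicate block, other libraries in the fit and leaving out libraries.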

Additional observations from a re-analysis of the deposited data

Results flagged for a closer look

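In 84 groups of 4 libraries (42 tested members in GF and FO), a library stood far from the other 3 in 8 cases, by Dixon's criterion at 95%. Chance gives this in about 1 of 20 groups of normally spread values. That rate does not hold for low counts, where a lone library above 0 is always flagged. Of these, 3 concerned GF 3. CLDN1 in GF 3 was at 5.87 CPM, with the other GF libraries at 16.6 to 18.4 CPM. NECTIN3 was at 243 CPM in GF 3, against 322 to 335 CPM, and GJB6 at 7.94 CPM, against 1.62 to 2.14 CPM. In GF 2, CDH4 was at 13.4 CPM, against 11.4 CPM in each of the others, and CLDN10 at 1.62 CPM, against 0 to 0.214 CPM. Single low counts gave the remaining flags, with CDH7 at 0.857 CPM and CLDN18 at 0.214 CPM in GF 1, and CLDN18 at 0.210 CPM in FO 3, while the other libraries of the group were at 0.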

How the results depend on the processing

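No call of a member turned its direction under any alternative run. In GF versus FO, 4 members higher and 9 lower became 5 lower with total counts alone, 2 and 5 against a fold of 1.5, and 2 and 5 without FO 1 and GF 3. Over all tested genes, 20.2% were higher and 9.06% lower with total counts alone. These shares were 11.2% and 6.60% against a fold of 1.5, and 9.82% and 6.76% without FO 1 and GF 3. In GF versus control, 7 higher and 5 lower became 11 higher with the DESeq2 Wald test and 11 higher without GF 3 and GF 4. With only the 2 groups compared in the fit they became 5 higher and 3 lower. Over all tested genes, 18.7% were higher with DESeq2 and 18.8% without GF 3 and GF 4. With the 2 groups alone, 7.97% of all tested genes were higher and 6.46% lower. In FO versus control, 10 higher and 2 lower became 4 lower without a filter on low counts, 13 higher and 9 lower without GF 3 and GF 4, and 13 and 10 with only the 2 groups compared in the fit. Over all tested genes, 7.49% were lower without that filter. Without GF 3 and GF 4, 20.5% of all tested genes were higher and 22.0% lower. With the 2 groups alone these shares were 22.6% and 23.0%. Leaving out 1 library at a time gave 2 to 4 higher and 5 to 11 lower in GF versus FO, 5 to 10 and 1 to 7 in GF versus control, and 6 to 10 higher with 2 lower in FO versus control, where a lone control library is assumed to vary like the other groups. In these comparisons 7 of 13, 6 of 12 and 8 of 12 called members kept their call under every alternative run. Same-numbered GF and FO libraries deviated together with r = 0.0967, 0.261, 0.115 and 0.117, and GF 1 and GF 4 correlated best with libraries of another number. So few libraries cannot settle whether the numbers pair them. In the comparisons with control, the block matched control libraries to grafts by number alone. With the replicate number as a block, 4 higher and 11 lower were called in GF versus FO, 7 higher and 2 lower in GF versus control, and 10 higher and 3 lower in FO versus control. The block added CDH18 and TJP1 in GF versus FO, CDH1 in GF versus control and NECTIN1 in FO versus control, and CDH4, CDH7, GJA4 and GJC1 in GF versus control did not pass with it. Of all genes called in GF versus FO 57.5% were higher, and 69.1% with total counts alone, which moved the median of all genes in GF versus control to 0.12. Depth limits the 23 members not tested, of which none had over 53 counts in all. The causes were not tested.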
